A study of Mus musculus with 16 samples.

Results

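The levels of 10 mRNAs of the endoplasmic reticulum (ER) stress response were followed in mouse liver. They are Hspa5, Hsp90b1, Calr, Pdia4, Pdia6, Dnajb9, Herpud1, Xbp1, Sdf2l1 and Hyou1, which were taken by their symbols from a deposited table of 57010 genes as known targets of the transcription factors ATF6 and XBP1. All 10 were listed and all 10 passed the filter on low values, which kept 11766 genes. RNA of 16 livers had been sequenced, from male wild-type C57BL/6J mice, with 4 mice in each of 4 groups. The study's methods give their age as between 8 and 12 weeks. A figure legend has the mice at 8 weeks when a diet of 3 months began, so mice on that diet were older at collection. The age at collection is not stated. The control mice (numbers 27 to 30) received neither agent. The Cd mice (1, 2, 5 and 6) received CdCl2 at 1.25 mg/kg by daily intraperitoneal injection over 7 days. The Se mice (39, 40, 41 and 44) were fed selenomethionine (SeMet) at 2 ppm for 3 months, and the Cd+Se mice (13 to 16) received both, the injections falling in the last 7 days of the diet. Whether control and Se mice were given a vehicle injection is not given in the sources used here. Values are transcript levels scaled to 1 common total per library (TPM). They correct for transcript length, so that levels may be compared between genes, but the sequencing depth cannot be read from them.

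The ER folds secreted and membrane proteins, of which the hepatocyte makes large amounts. When unfolded protein builds up, 3 sensors in the ER membrane, IRE1, PERK and ATF6, start the unfolded protein response (UPR). IRE1 splices the Xbp1 mRNA into the form that encodes the active factor, ATF6 is cut to release its own factor, and PERK slows translation and favours that of ATF4. ATF6 and XBP1 raise the genes of chaperones, of folding enzymes and of ER-associated degradation (ERAD). ATF4 raises genes that include Ddit3, which encodes CHOP. Gene-level TPM do not separate spliced from unspliced Xbp1. The deposited KEGG annotation places 7 of the 10 genes in protein processing in the ER, and the other 3, Pdia6, Dnajb9 and Sdf2l1, are not annotated there.

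Because these genes are known to be driven through short promoter elements, the promoter windows of RefSeq (GRCm38.p6, from 250 bases before to 50 bases after the gene start) were searched on both strands for the ER stress response element (ERSE, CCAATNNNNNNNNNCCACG), ERSE-II (ATTGGNCCACG) and the UPR element (UPRE, TGACGTGG). A window was found for 9 of the genes, and Hyou1 had no entry. ERSE was present in 4 of the 9 windows against 0.119% of 32851 promoters, ERSE-II in 1 of 9 against 0.0365%, and UPRE in 0 of 9 against 0.676%. The genes were taken as known targets of ATF6 and XBP1, so a higher share than over all promoters was to be foreseen. These shares are a description and test nothing. The elements are shown in capitals with their flanks, on the strand of the gene, since their carriers include both a gene that passed the test in Cd mice and genes that did not.
Hspa5, chr2:34772020-34772048, plus strand: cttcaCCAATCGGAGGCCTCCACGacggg
Calr, chr8:84847050-84847118, minus strand: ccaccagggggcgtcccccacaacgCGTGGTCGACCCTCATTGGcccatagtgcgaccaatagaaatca
Hsp90b1, chr10:86705528-86705661, minus strand: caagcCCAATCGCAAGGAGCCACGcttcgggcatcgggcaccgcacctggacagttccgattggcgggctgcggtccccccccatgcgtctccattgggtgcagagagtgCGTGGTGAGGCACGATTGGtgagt
Pdia6, chr12:17266466-17266534, plus strand: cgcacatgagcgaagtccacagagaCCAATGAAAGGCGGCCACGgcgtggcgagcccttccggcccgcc
Herpud1, chr8:94386352-94386412, plus strand: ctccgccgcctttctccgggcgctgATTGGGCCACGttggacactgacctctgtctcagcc
The first base of the element lay at -65 from the RefSeq start in Hspa5, at -162 in Calr, at -98 in Pdia6 and at -52 in Herpud1, where the element is ERSE-II. Hsp90b1 held ERSE at both -212 and -107. In Calr and at the second place in Hsp90b1 the element reads on the opposite strand. Pdia4, Xbp1, Dnajb9 and Sdf2l1 held none of these exact letters in the window, which says nothing of elements with other letters or farther away.

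Metallothionein mRNA (Mt1), whose product binds Cd, ranged from 3178 to 6070 TPM in the 8 mice given Cd and from 50.9 to 431 TPM in the other 8, so the libraries followed their labels as to Cd. The SeMet labels were not checked by it, since Mt1 did not differ detectably between Cd+Se and Cd mice (log2 fold change 0.24, limma adjusted p = 0.758). Hepatocyte markers were abundant in every library, with a sum of 8 markers of 67547 to 88793 TPM in control, 43759 to 70974 in Cd, 56866 to 77329 in Cd+Se and 66481 to 116106 in Se mice, and 2 of the 8 were called lower in Cd than in control. Of the libraries, that of Cd mouse 5 stood apart, with 63.0% of its TPM in nuclear protein-coding genes against 69.7% to 76.9% in the others. Values without it are given for some of the named genes whose call in Cd against control changed when it was left out. The median change of all genes tested in Cd against control was -0.17 on the log2 scale as deposited. It was also -0.17 with TPM rescaled to nuclear protein-coding genes. It was -0.01 after quantile normalization, 0.05 after median centring of the libraries and -0.02 after a correction for transcript length and GC content. Falls made up 81.1% of the genes called as deposited and 79.6% after the rescaling. They made up 57.1%, 44.4% and 56.3% under the other scalings, in the order given. Quantile normalization and median centring draw the library medians together by design. Kupffer cell markers were lower (sum of 6 markers, 35.0 to 54.4 TPM in Cd and 105 to 129 in control, 6 of 6 called lower) and neutrophil markers were higher (sum of 6, 31.2 to 39.5 against 5.52 to 15.8, with both of the 2 tested called higher) in Cd mice. In bulk tissue, fewer cells of a type cannot be told apart from less RNA per cell. Plasma cells and pancreatic acinar cells are rich in ER chaperones. The plasma cell sum overlapped between groups (27.6 to 34.8 TPM in control, 30.6 to 51.2 in Cd), with 0 of 4 tested markers called, and 7 of the 8 acinar markers were under 1 TPM in every mouse. The part of the changed cell markers in the results given further on was not tested.

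In control liver the 10 mRNAs spanned from 277 TPM for Calr to 9.17 TPM for Sdf2l1. Calr (277 ± 44.1 TPM, SD, n = 4), the calcium-binding lectin chaperone calreticulin, and Hsp90b1 (273 ± 29.1), the ER member of the HSP90 family, led the order. Hspa5 (218 ± 34.0), the HSP70 chaperone BiP, and Herpud1 (205 ± 30.2), an ER membrane protein of the ERAD complex, came next. The ranges of neighbours in this order overlapped from Calr down to Xbp1 (163 ± 15.7), and only 2.94% of the genes tested had a higher mean than Calr. Below Xbp1 the ranges of Pdia6 (101 ± 12.2) and Pdia4 (59.0 ± 5.78), which are both protein disulfide isomerases, separated from their neighbours. Hyou1 (32.5 ± 6.78), a large HSP70-like exchange factor of BiP, and Dnajb9 (32.0 ± 7.54), a J-domain partner of BiP, overlapped with each other. Sdf2l1 (9.17 ± 0.952), a small partner of the BiP and J-domain system, lay below all of them, with 46.2% of the genes tested above it.

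**Figure D1:**
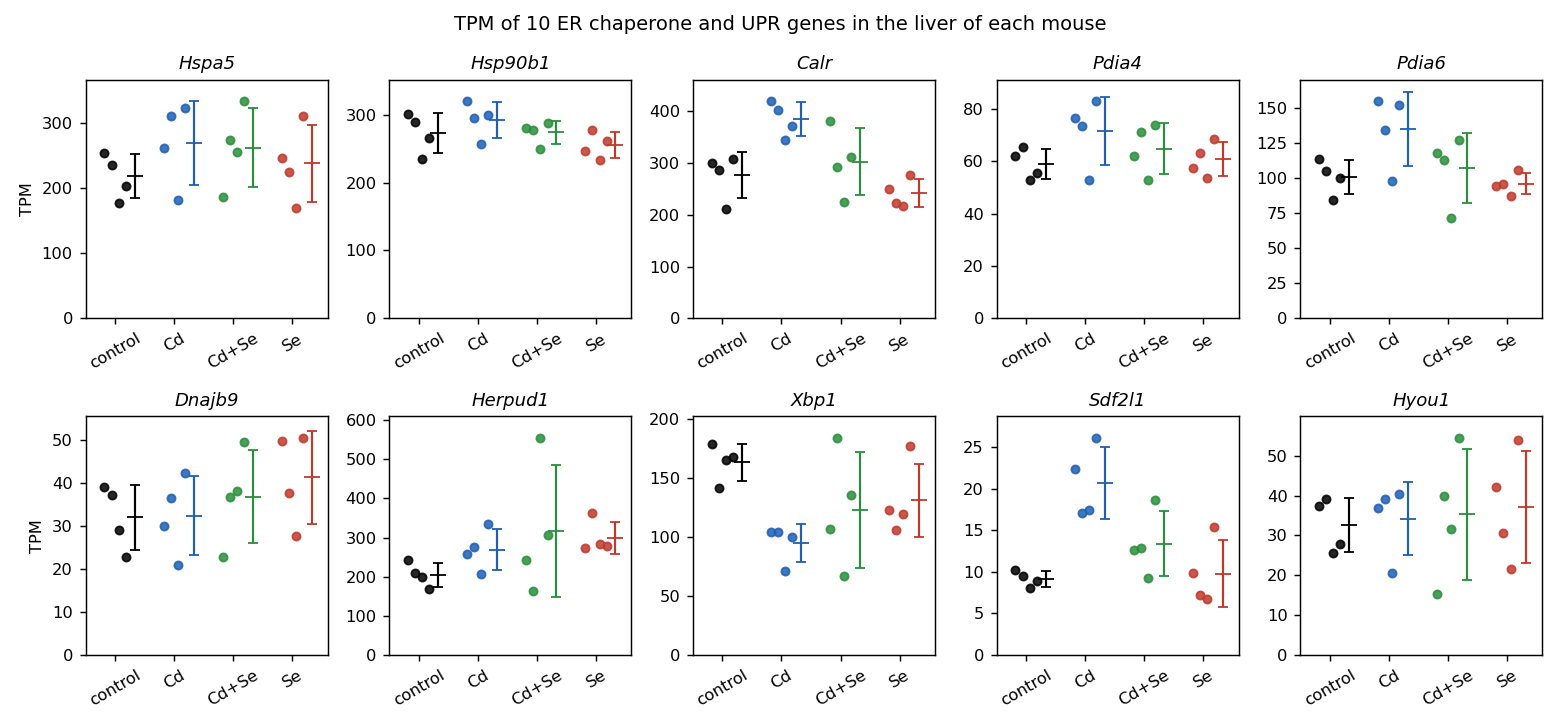
TPM of each of the 10 genes (vertical axis, from 0) in each mouse (points) of each group (control, Cd, Cd+Se, then Se on the horizontal axis), with the group mean and SD as a bar beside the points. Sdf2l1 and Calr are higher in every Cd mouse than in any control mouse, Xbp1 is lower in every Cd mouse, and the groups overlap in the other 7 genes when Cd is set against control.

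The first question was whether Cd changed these mRNAs. Of the 10 genes, 2 rose and 1 fell in Cd mice at a limma adjusted p under 0.05, where 5.82% of the 11766 genes tested rose and 24.9% fell. The same 2 were higher in every Cd mouse than in any control mouse, as were 6.44% of all genes, and the same 1 was lower in every Cd mouse, as were 27.8%. The genes that rose were Sdf2l1 and Calr, and the gene that fell was Xbp1. Of the 10 log2 fold changes 9 were above 0, with a median of 0.27, where the median over all genes tested was -0.17. Adjusted p-values in the text are from limma on log2(TPM + 1) with Benjamini-Hochberg adjustment over all genes tested, and on this scale the change of a gene with few TPM is understated.

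Sdf2l1 had the largest change of the 10. It was 10.25, 9.52, 8.0 and 8.92 TPM in control mice 27 to 30, and it was 22.3, 17.1, 17.4 and 26.1 TPM in Cd mice 1, 2, 5 and 6. It was 12.7, 12.9, 9.27 and 18.6 TPM in Cd+Se mice 13 to 16, and 9.84, 7.17, 6.71 and 15.4 TPM in Se mice 39, 40, 41 and 44. The lowest Cd mouse was above every control and every Se mouse, and of the Cd+Se mice only mouse 16 reached into the range of the Cd mice. Its rise from control to Cd was 2.11-fold, or 1.08 on the log2 scale (standard error 0.227, 95% interval 0.60 to 1.56, limma adjusted p = 0.00286). It was between 0.97 and 1.16 with any 1 mouse left out and between 1.01 and 1.3 under the other settings, with an adjusted p of at most 0.0116 in limma. The gene lies on chromosome 16 from 17130138 to 17132383 (GRCm38, minus strand, ENSMUSG00000022769), and its longest transcript of 1108 bases is the shortest of the 10. Across all genes, shorter transcripts fell less in Cd mice (median log2 fold change of -0.02 for genes whose longest transcript is under 2295 bases and -0.30 for those over 3999 bases), and the value for Sdf2l1 after the length and GC correction was 1.01.

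Calr (ENSMUSG00000003814, chromosome 8 from 84841850 to 84846934, minus strand) was 300.4, 288, 212 and 308 TPM in control mice 27 to 30, and 419, 402, 344 and 373 TPM in Cd mice 1, 2, 5 and 6. Its levels were 382, 292, 225 and 312 TPM in Cd+Se mice 13 to 16, and 250.1, 223, 218 and 277 TPM in Se mice 39, 40, 41 and 44. Every Cd mouse was above every control and Se mouse, while the Cd+Se mice spread across both ranges. The Cd level was 1.4 times the control level, a log2 difference of 0.48 (standard error 0.155, 95% interval 0.15 to 0.81, limma adjusted p = 0.0275). This call was near the threshold. Without control mouse 29 the adjusted p in limma was 0.102, without Cd mouse 1 it was 0.0610, without Cd mouse 2 it was 0.0589, and when every gene above 0 TPM was tested it was 0.0615.

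Xbp1 (ENSMUSG00000020484, chromosome 11 from 5520659 to 5525893, plus strand) was the gene that fell. It was 178, 141, 165 and 167 TPM in control mice 27 to 30, and 104, 104, 71.15 and 99.5 TPM in Cd mice 1, 2, 5 and 6. It was 107, 184, 67.0 and 135 TPM in Cd+Se mice 13 to 16, and 123, 106, 119 and 176 TPM in Se mice 39, 40, 41 and 44. Each Cd mouse was below each control and each Se mouse, and Cd+Se mice reached from the lowest value of all 16 mice to the highest. Xbp1 fell by 0.79 on the log2 scale in Cd against control (standard error 0.239, 95% interval -1.3 to -0.28, limma adjusted p = 0.0210), to 0.579 times the control level. Without Cd mouse 5, which had the lowest level of its group, the fall was 0.66 with a limma adjusted p of 0.0735, and without control mouse 27 the adjusted p was 0.0518. Median centring left a fall of 0.57 with a limma adjusted p of 0.0667, and testing every gene above 0 TPM gave an adjusted p of 0.0593.

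Ratios between mRNAs of 1 library are not changed by a factor common to the whole library. Quantile normalization and the length and GC correction can change them, and the ratios here are from TPM as deposited. These ratios were chosen after the values were seen and are given with no test. Sdf2l1 was 4.03% to 4.51% of the Hspa5 level in control mice, 5.50% to 9.60% in Cd mice, 3.64% to 6.80% in Cd+Se mice and 3.20% to 4.96% in Se mice, so that the Cd mice lay above both groups without Cd. Xbp1 was 60% to 93.3% of the Hspa5 level in control mice, 30.8% to 39.9% in Cd mice, 26.3% to 67.0% in Cd+Se mice and 47.3% to 70.7% in Se mice, and the Cd mice lay below both groups without Cd. Calr was 118% to 151% of the Hspa5 level in control mice and 115% to 190% in Cd mice, and these ranges overlapped.

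Among the other chaperones and folding enzymes, Pdia6 had the largest difference, which did not pass the test. It was 114, 105, 84.6 and 100.3 TPM in control mice 27 to 30, and 155, 134, 97.8 and 152 TPM in Cd mice 1, 2, 5 and 6. In Cd+Se mice 13 to 16 it was 118, 113, 71.2 and 127 TPM, and it ranged from 87.3 to 106 TPM in Se mice. All Cd mice but mouse 5 were above the control range. The log2 fold change of Pdia6 was 0.40 (95% interval 0.03 to 0.77, limma adjusted p = 0.0959), and it was 0.54 (adjusted p = 0.0308) without Cd mouse 5. Pdia4 ranged from 53.0 to 65.4 TPM in the control group and from 53.0 to 82.9 TPM in the Cd group, a log2 fold change of 0.26 (95% interval -0.05 to 0.56, limma adjusted p = 0.186) that was 0.39 (adjusted p = 0.0374) without Cd mouse 5.

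Hspa5 (ENSMUSG00000026864, chromosome 2 from 34771970 to 34777547, plus strand), whose protein also holds the 3 sensors inactive, overlapped between all groups. Its levels were 254, 235, 177 and 204 TPM in control mice 27 to 30 and 261, 310.3, 181 and 323 TPM in Cd mice 1, 2, 5 and 6. They were 186, 274, 255 and 333 TPM in Cd+Se mice 13 to 16 and 247, 224, 169 and 311 TPM in Se mice 39, 40, 41 and 44. Cd mouse 5 lay near the bottom of the control range and the other 3 Cd mice above it. The ratio of Cd to control was 1.22, a log2 difference of 0.28 whose 95% interval included 0 (standard error of the difference 0.217, 95% interval -0.18 to 0.74, limma adjusted p = 0.340). Hsp90b1 ranged from 235 to 301 TPM in the control group and from 256 to 319 TPM in the Cd group, with a log2 fold change of 0.10 (95% interval -0.12 to 0.32).

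For the other partners of BiP and for Herpud1 no change was called. Dnajb9 was 38.9, 37.2, 29.1 and 22.7 TPM in control mice 27 to 30 and 30.04, 36.4, 21 and 42.3 TPM in Cd mice 1, 2, 5 and 6, with a log2 fold change of 0.01 (95% interval -0.54 to 0.56). Hyou1 lay between 25.5 and 39.25 TPM in the control group and between 20.7 and 40.4 TPM in the Cd group, with a log2 fold change of 0.05 (95% interval -0.66 to 0.76). Both intervals include changes of the size found for Calr. Herpud1 was 242, 209.6, 198 and 169 TPM in control mice 27 to 30 and 259, 275, 207 and 333 TPM in Cd mice 1, 2, 5 and 6, a log2 fold change of 0.38 (95% interval -0.18 to 0.94, limma adjusted p = 0.292).

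**Figure D2:**
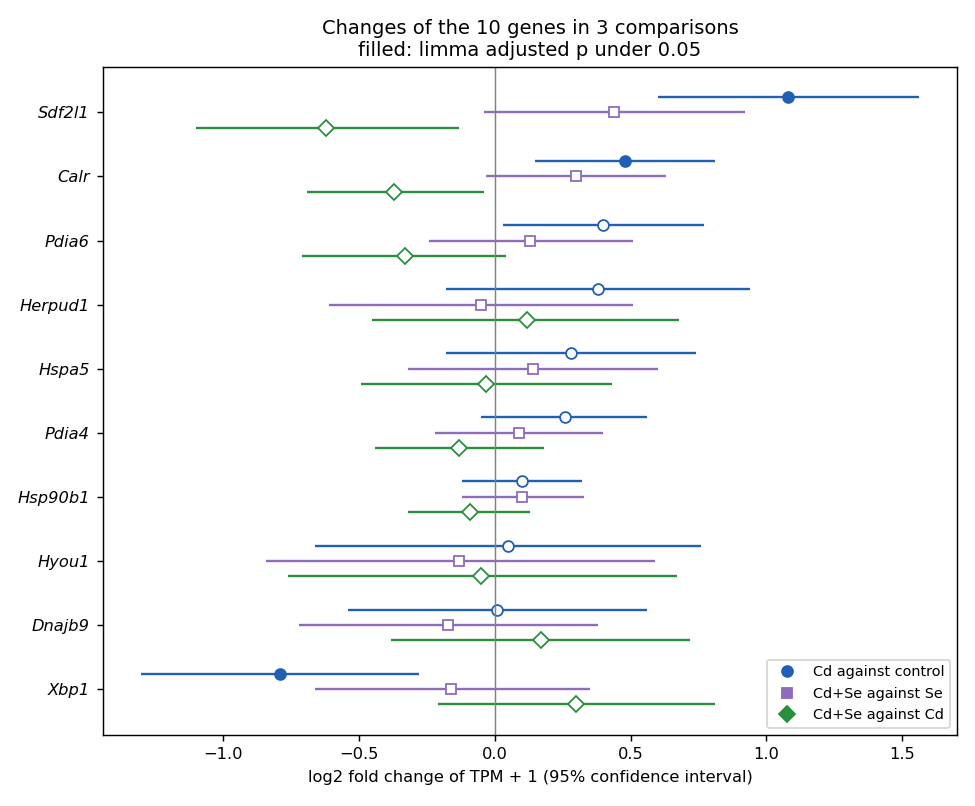
Log2 fold change of TPM + 1 (horizontal axis) with its 95% confidence interval for each of the 10 genes (vertical axis), in Cd against control (circles), Cd+Se against Se (squares) and Cd+Se against Cd (diamonds), with filled symbols where the limma adjusted p is under 0.05. Filled symbols are seen for Sdf2l1 at 1.08, Calr at 0.48 and Xbp1 at -0.79 in Cd against control, and nowhere else.

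The scaling of the libraries set how many of the chaperones passed. In Cd against control 4 genes rose and 1 fell after quantile normalization, 5 rose and 0 fell after median centring, 3 rose and 1 fell with TPM rescaled to nuclear protein-coding genes, and 5 rose and 1 fell with the length and GC correction. Sdf2l1 and Calr were called under all 4, Pdia6 under all 4, Pdia4 under all but the rescaling, and Hsp90b1 under median centring and the correction for length and GC. Xbp1 was called under all but median centring. As deposited, 9 of the 10 lay above the median of all genes, which itself moved under all but the rescaling to nuclear protein-coding genes. The median of the 10 was 0.27 as deposited, 0.31 after the rescaling and 0.30 after quantile normalization. It was 0.49 after median centring and 0.45 with the correction for length and GC.

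**Figure D3:**
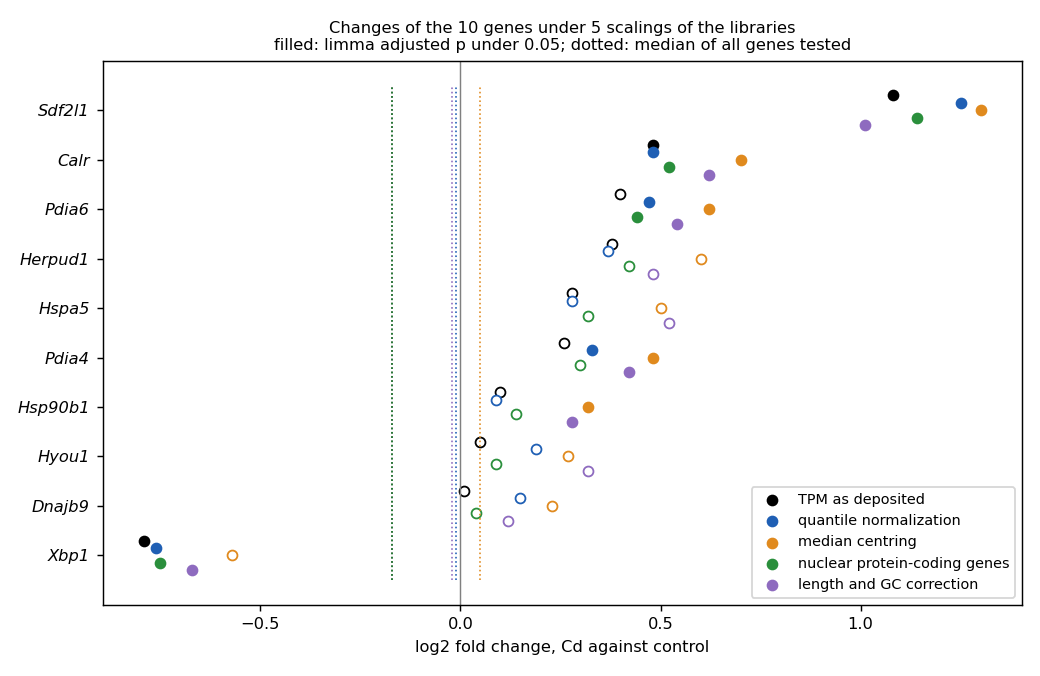
Log2 fold change in Cd against control (horizontal axis) of the 10 genes (vertical axis) with TPM as deposited and under 4 other scalings, filled where the limma adjusted p is under 0.05, with the median of all genes tested as a dotted line for each scaling. Every gene keeps its direction, the values of Sdf2l1 lie between 1.01 and 1.3 and those of Xbp1 between -0.79 and -0.57, and Pdia6 and Pdia4 are filled under some scalings only.

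The next question was whether the SeMet diet changed these mRNAs in mice given Cd. In Cd+Se against Cd, 0 of the 10 genes were called in limma, where 13.6% of all genes tested passed as higher in Cd+Se and 2.35% as lower. Ranges without overlap were found for 0 of 10, where 16.1% of all genes were higher and 3.11% lower in every mouse. At an unadjusted limma p under 0.05, 2 of the 10 were lower in Cd+Se, Sdf2l1 and Calr. The same Cd mice stand in this comparison and in that of Cd with control. Sdf2l1 was lower by 0.62 on the log2 scale (95% interval -1.10 to -0.13, limma adjusted p = 0.0726) and Calr by 0.37 (95% interval -0.69 to -0.04, limma adjusted p = 0.115). Pdia6 was 0.793 times the Cd level (log2 fold change -0.33, limma adjusted p = 0.196), and Xbp1 was 1.23 times (log2 fold change 0.30, 95% interval -0.21 to 0.81). The change of Hspa5 was -0.03 (95% interval -0.49 to 0.43). Here too the calls depended on the scaling. Calr and Sdf2l1 were called lower with TPM rescaled to nuclear protein-coding genes, Calr, Hsp90b1, Pdia6 and Sdf2l1 after median centring, Sdf2l1 after quantile normalization, and Calr and Hsp90b1 after the length and GC correction. Without Cd+Se mouse 13 Calr was called lower (limma adjusted p = 0.0425), and without Cd+Se mouse 16 or without Se mouse 44 Sdf2l1 was (adjusted p = 0.0411 and 0.0418).

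Set against the Se mice, with which Cd+Se mice share the diet, 0 of the 10 genes were called in limma and 0 had an unadjusted p under 0.05, where 0.544% of all genes were higher and 0.170% lower. None had ranges without overlap, against 1.96% of all genes higher and 3.68% lower. Sdf2l1 was 1.36 times the Se level (log2 fold change 0.44, 95% interval -0.04 to 0.92) and Calr 1.23 times (0.30, 95% interval -0.03 to 0.63), and Xbp1 was 0.897 times (-0.16, 95% interval -0.66 to 0.35). Both intervals of Sdf2l1 and Calr reach below 0 and also include a good part of the rise seen in Cd against control. The difference between the diets was tested as the interaction of Cd and Se. It gave 0 calls among the 10 genes in limma and 0 at an unadjusted p under 0.05, where 0.901% of all genes were called above 0 and 0.136% below. The largest interaction terms were those of Sdf2l1 (-0.64, 95% interval -1.32 to 0.04, limma adjusted p = 0.264) and Xbp1 (0.63, 95% interval -0.08 to 1.35, limma adjusted p = 0.290). A smaller effect of Cd on either gene under the SeMet diet was thus not shown.

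Between control and Cd+Se mice 0 of the 10 genes were called in limma and 0 had an unadjusted p under 0.05, where 0.314% of all genes were higher and 0.170% lower. Values lying between 0 and those of Cd against control were found for Sdf2l1 (log2 fold change 0.46, 95% interval -0.02 to 0.94) and Xbp1 (-0.49, 95% interval -1.0 to 0.02). The same held for Calr (0.12, 95% interval -0.21 to 0.45), Pdia6 (0.06), Pdia4 (0.13), Hspa5 (0.25) and Hsp90b1 (0.01), but not for Dnajb9 (0.18) or Herpud1. Herpud1 was 0.50 (95% interval -0.06 to 1.06), and its spread was wide, with 244, 164, 554 and 305 TPM in Cd+Se mice 13 to 16. Cd+Se mouse 15 had both the highest Herpud1 and the lowest Xbp1 of all 16 mice.

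The SeMet diet alone called 0 of the 10 genes, and 0 of all 11766 genes, in limma against control (0% higher and 0% lower), and 0 of the 10 had an unadjusted p under 0.05. Herpud1 was 273, 362, 284 and 279 TPM in Se mice 39, 40, 41 and 44, each above every control mouse, as in 1.29% of all genes, whereas 1.79% were lower in every Se mouse. Its log2 fold change was 0.55 (standard error 0.265, 95% interval -0.01 to 1.11, limma adjusted p = 1). The other 9 log2 fold changes lay between -0.33 (Xbp1) and 0.35 (Dnajb9).

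Mice of the same group differed, and they differed in several members at once. Of the 10 genes, Se mouse 44 had the highest level of its group in 8 and Se mouse 41 the lowest in 8. Cd mouse 5 had the lowest in 9, Cd mouse 6 the highest in 6 and Cd mouse 1 the highest in 4. Control mouse 27 had the highest in 7 and control mouse 29 the lowest in 7, and Cd+Se mouse 16 had the highest in 7 and mouse 15 the lowest in 6. With group means removed, the correlation of log2(TPM + 1) over the 16 mice was above 0 in 40 of the 45 pairs of members, with a median Pearson r of 0.52. These points share their library and its scaling and are given as a description. Hspa5, Hyou1 and Dnajb9 varied most closely together (r = 0.95 for Hspa5 with Hyou1, 0.92 for Hspa5 with Dnajb9 and 0.92 for Dnajb9 with Hyou1). Pdia4, Pdia6 and Hsp90b1 formed another close set (0.88 for Pdia4 with Pdia6, and 0.82 for each of them with Hsp90b1), and Calr was closest to Pdia6 (0.78) and far from Dnajb9 (0.03). Herpud1 was the exception, with correlations from -0.61 to 0.37 to the other members. Its value of -0.61 with Xbp1 was -0.18 without Cd+Se mouse 15 and -0.79 without Cd mouse 5.

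**Figure D4:**
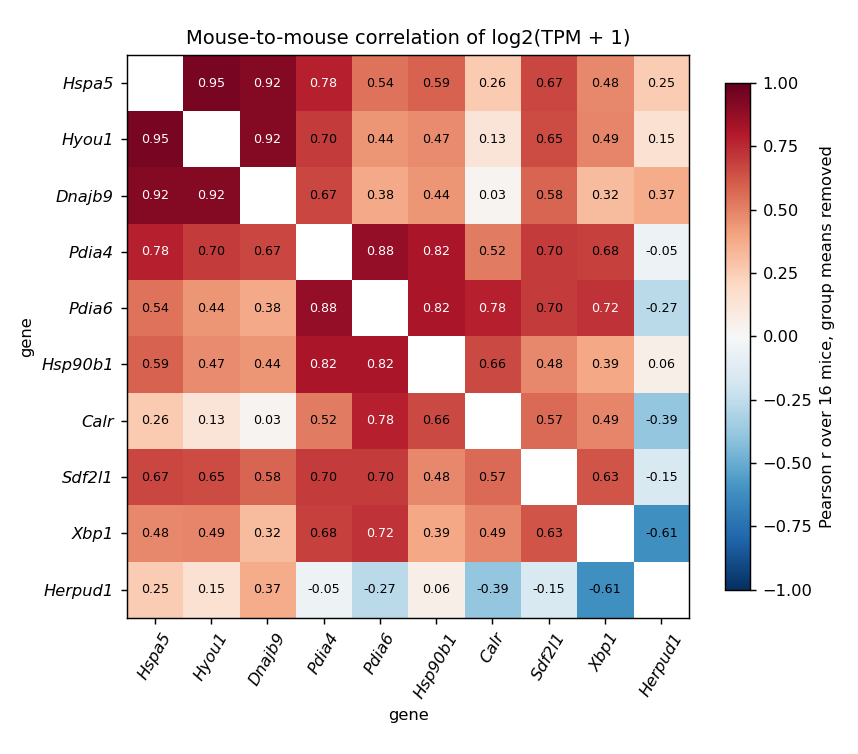
Pearson r of log2(TPM + 1) between each pair of the 10 genes (both axes) over 16 mice after removal of the group means, with the value printed in each cell and red for values above 0. Hspa5, Hyou1 and Dnajb9 form a block with r from 0.92 to 0.95, and the row of Herpud1 is pale or blue.

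The 6 genes outside the set whose levels followed Hspa5 most closely over the 16 libraries, with group differences left in, were Dnajb11 (Pearson r = 0.88), Syvn1 (0.88), Manf (0.87), Cks1b (0.87), Creld2 (0.87) and Tmed9 (0.84). Dnajb11 encodes another J-domain partner of BiP, Manf and Creld2 encode proteins of the ER lumen, Syvn1 encodes the ERAD ubiquitin ligase HRD1, Tmed9 a cargo receptor between ER and Golgi, and Cks1b a subunit of cyclin-dependent kinases. Manf was 98.6 ± 18.5 TPM (SD, n = 4) in the control group and 153 ± 29.4 TPM in the Cd group, with a log2 fold change of 0.62 (limma adjusted p = 0.0648). Of the 6, Syvn1 (0.70, limma adjusted p = 0.0437) and Cks1b (0.73, adjusted p = 0.0474) were called in Cd against control, and these calls were lost in 9 and 11 of 25 other settings.

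Lists of other ER and UPR genes were then counted, since a change of the 10 members may be shared by the machinery around them. In Cd against control, 4 of 22 further ER folding genes rose (18.2%) and 3 fell (13.6%), where 5.82% and 24.9% of all genes did, with a median log2 fold change of -0.02. Fkbp11 (0.73, limma adjusted p = 0.0345) and Ppib (0.60, adjusted p = 0.00402), which encode prolyl isomerases, rose, as did Fkbp2 and Erp29. Ero1a (-0.66, limma adjusted p = 0.00434), the oxidase that feeds the disulfide isomerases, the LDL receptor chaperone gene Mesd (-0.57, adjusted p = 0.00931) and Canx, which encodes calnexin, the membrane-bound relative of calreticulin (-0.53, adjusted p = 0.0184), fell. The call of Canx was lost in 1 of 25 other settings, a fit with 1 mouse left out (limma adjusted p = 0.0595). The 4 control mice lay between 11.4 and 12.9 TPM for Fkbp11 and the 4 Cd mice between 17.5 and 23.5 TPM. Its call was nevertheless lost in 8 of 25 other settings, among them leaving out Cd mouse 5 (limma adjusted p = 0.0670) or any 1 control mouse. After median centring 10 of the 22 rose and 2 fell.

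Of 22 ERAD genes, 1 rose (4.55%) and 6 fell (27.3%), close to the shares over all genes, with a median of -0.13. Syvn1 was the gene that rose, from 15 ± 1.91 to 25.5 ± 7.06 TPM (SD, n = 4), a call lost in 9 of 25 other settings with a limma adjusted p of up to 0.132. The 6 that fell included Nploc4, which encodes a cofactor of the VCP segregase (-0.95, limma adjusted p = 0.00101), and the mannosidase-family genes Man1b1 (-0.57, adjusted p = 0.0116) and Edem3 (-0.55, adjusted p = 0.0136). After the length and GC correction 5 rose and 3 fell. Of 28 tested genes of ER translocation and export, 2 rose (7.14%) and 3 fell (10.7%), with a median of 0.02. Sec63, which works with BiP at the translocon, rose (0.53, limma adjusted p = 0.00523), whereas the cargo receptor gene Lman1 (-0.80, adjusted p = 0.00363), the COPII coat gene Sec23b (-0.74, adjusted p = 0.0280) and the signal peptidase gene Spcs1 (-0.46, adjusted p = 0.0191) fell. Without Cd mouse 5 the fall of Sec23b was 0.56 (limma adjusted p = 0.101) and that of Spcs1 was 0.35 (adjusted p = 0.0594), and the call of Sec23b was lost in 8 of 25 other settings. After median centring 12 of these 28 rose and 1 fell.

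Of 12 genes for the sensors and their processing enzymes, 5 fell (41.7%) and 1 rose (8.33%), where falls outnumbered rises over all genes too (24.9% and 5.82%), and the median was -0.43. With the length and GC correction 3 fell and 2 rose, with a median of -0.17. The gene that rose, Creb3l2 (0.45, limma adjusted p = 0.0497), lost its call in 14 of 24 other settings. Creb3l3, which encodes a hepatocyte factor of the ATF6 type, ranged from 123 to 146 TPM in the control group, from 63.1 to 75.6 TPM in Cd mice, from 85.6 to 142 TPM in Cd+Se mice and from 122 to 134 TPM in Se mice. Creb3l3 fell by 0.98 on the log2 scale from control to Cd (standard error 0.134, limma adjusted p = 0.000234), and the change was 0.57 (adjusted p = 0.0149, lost in 2 of 25 other settings) in Cd+Se against Cd. Atf6 fell from 13.6 ± 1.97 to 8.50 ± 2.29 TPM (SD, n = 4; log2 fold change -0.64, limma adjusted p = 0.0381), a call that was lost in 9 of 25 other settings, among them leaving out Cd mouse 5 (-0.50, adjusted p = 0.126), and Atf6b fell by 0.72 (adjusted p = 0.00452). Rtcb, the ligase that completes the splicing of Xbp1 mRNA, fell by 0.58 on the log2 scale (limma adjusted p = 0.00885). Ern1, which encodes IRE1, was 17.4 ± 3.51 TPM in control and 12.7 ± 4.44 TPM in Cd mice (log2 fold change -0.47, limma adjusted p = 0.222). Eif2ak3, which encodes PERK, was 3.01 ± 0.964 and 4.35 ± 0.313 TPM (0.45, limma adjusted p = 0.0578). In Cd+Se against Cd 5 of the 12 (41.7%) were called higher and 0 lower, where 13.6% and 2.35% of all genes were. These 5 became 3 after quantile normalization, 2 with the length and GC correction, 1 after median centring and 1 with no filter on low values. In this comparison the calls of Atf6 and Atf6b were lost in 8 of 25 and 10 of 24 other settings. Over all genes, 1600 were called higher with all mice, 591 without Cd mouse 5 and 1938 without Cd mouse 1. With only the Cd+Se and Cd groups in the model 47 were.

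Of 17 genes of the PERK and ATF4 arm, 5 rose (29.4%) and 2 fell (11.8%) in Cd mice, where 5.82% and 24.9% of all genes did, with a median of 0.50. After each of the other scalings 7 or 8 rose and 1 or 2 fell, with no filter on low values 2 rose and 2 fell, and with a mean of at least 5 TPM 3 of the 10 genes left rose and 2 fell. Ddit3 was 7.67, 8.34, 6.70 and 8.44 TPM in control mice 27 to 30, and 17.65, 19.7, 14 and 22.7 TPM in Cd mice 1, 2, 5 and 6. It was 9.59, 8.24, 10.3 and 13.3 TPM in Cd+Se mice 13 to 16, and 8.54, 14.2, 7.41 and 16.3 TPM in Se mice 39, 40, 41 and 44. Every Cd mouse was above every control and Cd+Se mouse, but Se mice 40 and 44 were above Cd mouse 5, and Se against control was 0.46 (limma adjusted p = 1, unadjusted p = 0.0449). For Ddit3 the log2 fold change from control to Cd was 1.14 (standard error 0.212, limma adjusted p = 0.00138) and -0.78 in Cd+Se against Cd (adjusted p = 0.0244), the latter call being lost in 4 of 25 other settings. Of the 17 genes, 2 were called higher in Cd+Se than in Cd, Eif2s1 (0.67, limma adjusted p = 0.00635) and Atf3 (0.71, adjusted p = 0.0469, lost in 16 of 24 other settings), and only Ddit3 was called lower. Nupr1 (1.25, limma adjusted p = 0.0275), Trib3 (0.79, adjusted p = 0.00666), Bbc3 (0.68, adjusted p = 0.0495) and Atf4 (0.60, adjusted p = 0.0380) also rose. The call of Bbc3 was lost in 12 of 24 other settings, among them leaving out Cd mouse 5 (limma adjusted p = 0.0734), that of Atf4 in 7 of 25 and that of Nupr1 in 4 of 25. Nupr1 encodes a stress-induced chromatin protein, Trib3 a pseudokinase and Bbc3 a pro-apoptotic protein. Eif2s1, the substrate of PERK, fell by 0.74 (limma adjusted p = 0.000829), and Ppp1r15b by 0.49. Levels in Se mice differed by gene. Nupr1 was 2.16 ± 0.852 TPM in control, 6.47 ± 1.78 in Cd and 6.58 ± 4.87 in Se mice (SD, n = 4). Atf4 was 34.6, 54.8 and 45.5 TPM in the same order, and Trib3 was 1.21, 2.80 and 1.01 TPM. In Se against control 0 of the 17 were called, with a list median of 0.29, where that of all genes was 0.01. The list median was -0.01 in Cd+Se against Se. Eif2ak3 is counted in both this list and that of the sensors.

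**Figure D5:**
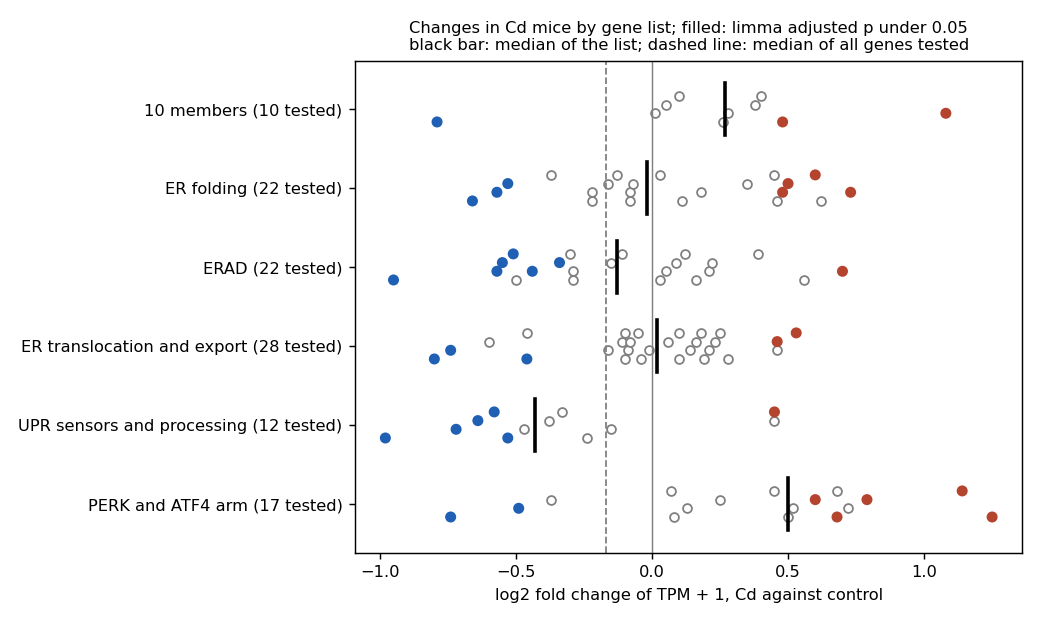
Log2 fold change in Cd against control (horizontal axis) of each tested gene (points, filled where the limma adjusted p is under 0.05) in the 10 members and 5 further lists (vertical axis), with the median of each list as a black bar and that of all genes tested, -0.17, as a dashed line. The bar lies at 0.27 for the members, at 0.50 for the PERK and ATF4 arm and at -0.43 for the sensors, and filled points stand on both sides of 0 in every list.

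In the broader deposited KEGG list of ER protein processing, with the members left out, 141 of 162 genes were tested. In Cd against control 8 of them (5.67%) rose and 39 (27.7%) fell, close to the 5.82% and 24.9% of all genes, with a median of -0.20. After median centring 34 rose and 24 fell, and with the length and GC correction 28 and 24. Between Cd and Cd+Se mice 25 were higher and 3 lower as deposited, and 20 and 21 after median centring, and the median as deposited was 0.18, where that of all genes was 0.17. In Cd+Se against Se, in Cd+Se against control and in Se against control, 0 genes of any of these lists were called in limma, with between 0 and 9 genes of a list at an unadjusted p under 0.05.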

How the data were processed

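Livers of 16 mice were grouped by the treatment in the sample labels. The numbers in the sample titles match the column names and were used as mouse numbers. Each title repeats its number with replicate suffixes, whose meaning is not given. The deposited values are TPM for 57010 genes. The submitters' notes name fastp, HISAT2 and StringTie without versions and the human build GRCh38, although the identifiers are those of mouse genes. Strandedness is not given in the sources used here, and a sequencing company made and analysed the libraries. TPM keep no depth, so precision rests on 4 mice per group.

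The 11766 genes whose mean over the libraries reached 1 TPM were compared as log2(TPM + 1) with limma 3.58.1 in R 4.3.3, in 1 model of 4 group means with an eBayes trend and Benjamini-Hochberg adjustment at 0.05. The steps were tested on simulated data. The members, the gene lists and the tests were chosen with earlier results of these data known, and the lists support nothing on their own. Named genes are the members, Mt1, Ern1, Eif2ak3, Atf6, Atf4 and Ddit3, the 6 genes with the highest Pearson r to Hspa5, and, of each list, up to 4 genes with the largest change past the threshold in Cd against control and up to 2 in Cd+Se against Cd and in Cd+Se against Se. Canx, Fkbp2, Erp29, Creb3l2, Bbc3 and Ppp1r15b complete small counts and were named after their values were seen. Ddit3 has 2 entries, and the one at 0 in every library was not used. Positions and transcript lengths are from GENCODE M21 (GRCm38), and promoter windows from RefSeq. Alternatives were a pseudocount of 0.1, no filter, a mean of at least 5 TPM, quantile normalization, median centring, rescaling to nuclear protein-coding genes, eBayes without a trend, a model of only the groups compared and leaving out each mouse. A loess correction on length and GC content was chosen after seeing the data.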

Additional observations from a re-analysis of the deposited data

Results flagged for a closer look

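In each group of 4 mice, the gap from the highest or lowest mouse to the nearest other was divided by the whole range and set against Dixon's critical value at the 95% level. Of 148 groups over 37 genes, 11 passed, where chance gives about 7.4 (1 in 20). Among the members, Herpud1 was 362 TPM in Se mouse 40 and 273 to 284 TPM in the other Se mice (ratio 0.879), and Xbp1 was 71.15 TPM in Cd mouse 5 and 99.5 to 104 TPM in the other Cd mice (0.858).

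Cd mouse 5 was also apart for Eif2ak3 (4.82 TPM, the others 4.18 to 4.23, ratio 0.922) and for Edem3 (4.39 TPM, the others 6.6 to 6.96, ratio 0.860). In Se mice, Nploc4 (29.2 TPM in mouse 40, ratio 0.849), Spcs1 (169 TPM in mouse 40, ratio 0.927) and Sec61b (83.0 TPM in mouse 41, ratio 0.837) had 1 mouse apart. In control mice, Ppib (273 TPM in mouse 27, ratio 0.854), Nploc4 (20.4 TPM in mouse 30, ratio 0.832) and Eif2s1 (13.4 TPM in mouse 30, ratio 0.887) did. In Cd+Se mice, Sec24d was 22.0 TPM in mouse 13 and 31.8 to 32.6 TPM in the others (ratio 0.916).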

How the results depend on the processing

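In Cd against control 3 members were called with TPM as deposited, 1 with no filter on low values, 5 after quantile normalization, 5 after median centring, 6 with the length and GC correction chosen after seeing the data, and between 2 and 4 with 1 mouse left out. Between Cd+Se and Cd 0 were called, against 1 after quantile normalization, 4 after median centring, 2 with TPM rescaled to nuclear protein-coding genes, 2 with the length and GC correction, and between 0 and 1 with 1 mouse left out. The cause of these shifts was not tested. The other 4 comparisons gave 0 called members under every alternative run. The share of lower genes among all genes called in Cd+Se against Cd was 14.7% as deposited and 57.6% after median centring. With only the Cd+Se and Cd groups in the model, 47 genes were higher and 19 lower in place of 1600 and 276.

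Log2 fold changes near 0 turned sign. For Cd+Se against Cd, Herpud1 was -0.08 after median centring and -0.20 to 0.38 with 1 mouse left out, and Hspa5 was -0.21 to 0.12. In Cd against control, Dnajb9 was -0.14 to 0.19 and Hyou1 -0.05 to 0.27 with 1 mouse left out. For Cd+Se against Se, Xbp1 was -0.38 to 0.10. Of 60 values (10 members in 6 comparisons), 23 changed sign in at least 1 fit without a mouse and 6 under another setting. No paired analysis was possible because the groups share no mouse numbers. The labels do not say whether mice shared a litter or a cage, and levels of mRNA do not give the splicing of Xbp1, the cleavage of ATF6 or the amount of any protein.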
